A study of Mus musculus with 6 samples.

Results

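The genes described here make fatty acids, join them to glycerol and store or carry them in the cell. They are 34 mouse genes, chosen by symbol for these roles, out of 41549 gene rows in the count table. The choice was made with earlier results of these data known, so their shares beside those of all genes are a description. They comprise 5 genes of acetyl-CoA supply and de novo synthesis, 4 elongases, 5 desaturases, 4 acyl-CoA synthetases, 8 genes of glycerolipid assembly, 6 genes of lipid droplets and fatty acid binding and 2 transcription factors. Messenger RNA was measured in 6 libraries of bone marrow-derived macrophages (Mφs) from wild type C57BL/6 N mice, a preparation grown from bone marrow with M-CSF. All cells were then polarized toward M2 by IL-4 together with IL-13, and before that they were transfected with a locked nucleic acid antisense oligonucleotide against 5′tRF-Glu(CTC), the 5′ piece of a tRNA for glutamate (αGlu, 3 libraries), or with a control oligonucleotide (Ctr, 3 libraries). The study describes replicates of primary cells as preparations from different animals. The comparison asks how the genes of lipid synthesis and storage differ between M2 Mφs in which the fragment was targeted and their controls.

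The oligonucleotide is shown because it is the only difference between the groups that the labels give. The antisense and the target sequence listed for it read as follows, 5′ to 3′ and in DNA letters. The capitals mark the bases of the target that pair with the antisense, which are bases 2 to 21. The target sequence is shorter than the fragments that the study describes.
αGlu antisense: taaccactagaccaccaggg
5′tRF-Glu(CTC) target: tCCCTGGTGGTCTAGTGGTTA

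Fatty acids are built in the cytosol from citrate. ATP-citrate lyase splits citrate to acetyl-CoA, acetyl-CoA carboxylase turns this into malonyl-CoA, and fatty acid synthase extends the chain to palmitate. Elongases and desaturases then lengthen and unsaturate the chain, acyl-CoA synthetases activate it, and a series of acyltransferases and phosphatases joins it to glycerol to give phospholipids and triglycerides, the latter being stored in droplets coated with perilipins. In Mφs this pathway supplies membranes and lipid mediators, and many of its enzymes are known targets of the transcription factors SREBP-1 and SREBP-2.

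Of the 34 genes, 31 had enough reads to be tested among 11933 genes. Total counts lay between 17912831 and 30386653 per library, so that 3 reads, the limit that a count of 0 allows, stand for 0.0987 to 0.168 CPM, which are counts scaled to library size. The cells carried high levels of the Mφ markers Csf1r, Cd68, Adgre1 and Lyz2 in all 6 libraries, with Csf1r between 2400 and 3055 CPM. Libraries αGlu 2 and αGlu 3 stood apart from the other 4. Within those 4, Ctr 1 lay furthest from the rest. Its chi-square per gene, a measure of difference beyond sampling noise, was 50.9 to 74.6 with Ctr 2, Ctr 3 and αGlu 1. Between Ctr 2, Ctr 3 and αGlu 1 the chi-square was 19.8 to 31.5. Across the genes tested, the log2 CPM of αGlu 2 and αGlu 3 correlated at a Pearson r of 0.995, while the r of αGlu 1 was 0.943 to each of them and between 0.976 and 0.99 to the Ctr libraries. Some of the 6 M2 markers read moved with this split, in both directions, and others did not. Arg1, which makes ornithine from arginine, stood at 24.3, 45.2 and 41.5 CPM in Ctr 1, 2 and 3, at 23.5 CPM in αGlu 1 and at 1886 and 1792 CPM in αGlu 2 and 3. Retnla, another IL-4 response gene, stood at 540, 246 and 289 CPM in Ctr and at 101 CPM in αGlu 1. In αGlu 2 and 3 it had 1 read each, or 0.0315 and 0.0367 CPM, which is below the limit given above. Chil3 did not follow the split, at 2895, 1789 and 1479 CPM across Ctr and 3025, 3529 and 2160 CPM across αGlu. Irf4 was lower in all 3 αGlu libraries, αGlu 1 included, at 30.35, 26.9 and 25.3 CPM across Ctr and 8.95, 2.05 and 1.54 CPM across αGlu. Mrc1 stood at 948, 771 and 898 CPM in Ctr, 840 CPM in αGlu 1 and 1513 and 2379 CPM in αGlu 2 and 3. Ccl24 stood at 0.636, 0.251 and 0.603 CPM in Ctr, 0.229 CPM in αGlu 1 and 9.07 and 16.2 CPM in αGlu 2 and 3. The part of this split in the results below was not tested, and the main results are given with and without αGlu 1. This library was picked because it stood nearer to Ctr in these same data. Adjusted p-values without αGlu 1 are therefore a description and not evidence of a difference. Leaving out any other single library gave 0 calls among all genes.

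No gene of the pathway passed the test with all 6 libraries. Calls required an adjusted p below 0.1 (edgeR's quasi-likelihood test with Benjamini-Hochberg adjustment over the 11933 genes) and a fold change above 2, and 0 of the 31 genes and 0 of all genes, or 0%, met it. The smallest edgeR adjusted p among the 31 was 0.149. At an unadjusted edgeR p under 0.05, 11 of the 31 were lower in αGlu, where 11.9% of all genes were, and 4 were higher, where 12.7% of all genes were. Limma-voom called 0 and gave 16 of the 31 at an unadjusted p under 0.05, where 26% of all genes were. DESeq2 called 3 of 32 genes lower (Elovl7, Fads2 and Fads3), against 3.92% of all genes it tested, and 2 higher (Acsl1 and Hilpda), against 4.21%. These p-values come from fits with the group as the only term and measure the spread between libraries within a group. Whether Ctr and αGlu libraries share a preparation is not settled.

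In 12 of the 31 genes all 3 αGlu libraries lay below all 3 Ctr libraries, whereas 15.9% of all genes did so, and in 1 gene, Fabp5, all 3 lay above, whereas 14.2% of all genes did so. The 12 were Fasn, Me1, Acaca, Acly, Elovl1, Elovl5, Fads1, Fads2, Fads3, Acsl3, Agpat3 and Plin3, which are mostly genes of synthesis, elongation and desaturation. For Fasn, Acaca and Acly this rested on the scaling factors (TMM, and likewise RLE). By library size alone, and likewise in the deposited TPM, these 3 overlapped and 9 genes lay below Ctr, where 13% and 11.7% of all genes did so. In total 19 genes were lower and 12 higher in αGlu, or 61.3% lower against 48% of all genes. The median log2 fold change, αGlu over Ctr, was −0.32 for the 31 genes and 0.02 for all genes. Without Ctr 1 the median of the genes was −0.17. In bulk RNA, a lower share of cells that express a gene and less RNA of it in each cell cannot be told apart.

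**Figure D1:**
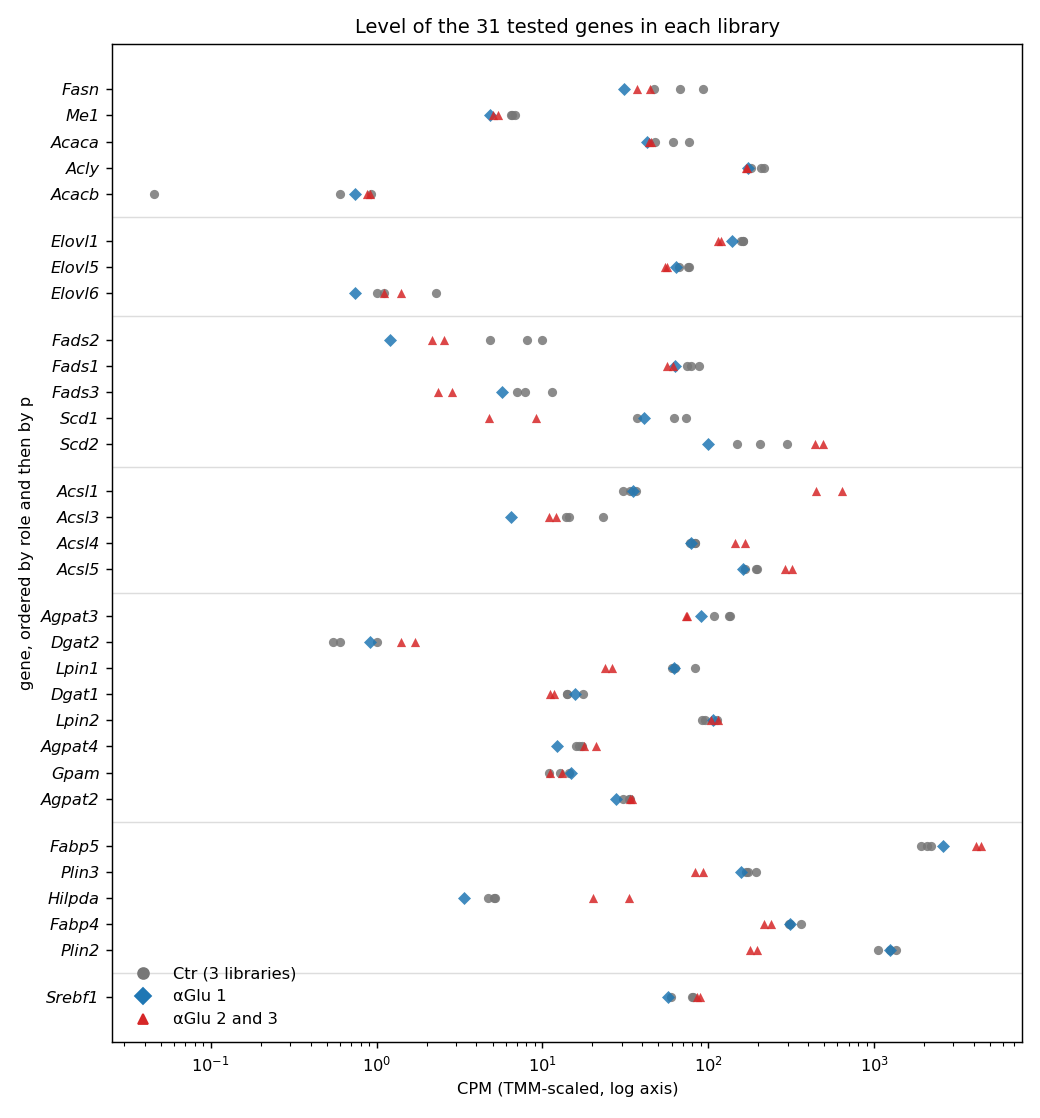
TMM-scaled CPM on a log axis (horizontal) of the 31 tested genes (vertical, ordered by role and within a role by p), with 1 point for each library: grey circles for the 3 Ctr libraries, a blue diamond for αGlu 1 and red triangles for αGlu 2 and αGlu 3. The αGlu points lie to the left of all Ctr points in 12 genes (9 by library size alone), and in Acsl1, Plin2, Scd1 and Lpin1 the blue diamond lies among the grey circles while both red triangles lie apart.

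Of the 5 genes of acetyl-CoA supply and de novo synthesis, 4 had every αGlu library below Ctr in CPM, and 1 of them, Me1, also by library size alone and in TPM. Fasn, which encodes fatty acid synthase, stood at 92.7, 67.3 and 46.8 CPM in Ctr 1, 2 and 3 and at 30.8, 36.9 and 44.2 CPM in αGlu 1, 2 and 3. The groups did not overlap in CPM, but the lowest Ctr and the highest αGlu library were close, and in TPM they crossed, at 12.8 for Ctr 3 and 13.3 for αGlu 3. In CPM the Ctr libraries differed among themselves more than the αGlu libraries did. The log2 fold change of Fasn was −0.89 ± 0.27 (SE), with an edgeR adjusted p of 0.160, and −0.77 without αGlu 1, with an edgeR adjusted p of 0.0674. Without Ctr 1, its highest library, it was −0.60 with an edgeR adjusted p of 0.351.

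Acaca, the acetyl-CoA carboxylase of the cytosol, showed the same arrangement, at 76.8, 60.8 and 48.0 CPM in Ctr and 42.8, 44.9 and 44.1 CPM for αGlu. Its αGlu libraries lay close together and all below the lowest Ctr library, at a log2 fold change of −0.49 ± 0.17 (SE). Me1, the cytosolic malic enzyme that supplies NADPH, stood at 6.81, 6.52 and 6.45 CPM in Ctr and 4.82, 5.38 and 5.06 CPM for αGlu, which is a log2 fold change of −0.37 ± 0.12 (SE). Its 2 groups did not overlap, on 84 to 171 reads per library and with an edgeR adjusted p of 0.163. Acly, the ATP-citrate lyase and the most abundant of these 5 genes per length, stood at 217, 207 and 180 CPM in Ctr and 173, 171 and 170 CPM for αGlu. Its difference was small, with a log2 fold change of −0.23 ± 0.10 (SE). Without αGlu 1 the log2 fold changes of Acaca, Me1 and Acly were −0.48, −0.34 and −0.25. Without Ctr 1 that of Acaca was −0.30. Acacb, the carboxylase of the mitochondrial membrane that serves mainly to restrain fatty acid oxidation, was near the lower limit of the data at 1 to 29 reads per library, and the groups overlapped. The summed TPM of the 5 genes, a level per exon length, was 150.3 ± 21.97 (SD, n = 3) in Ctr and 127 ± 4.80 (SD, n = 3) in αGlu.

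Fasn lies on the minus strand of chromosome 11 at chr11:120805958-120825166 in build GRCm38. The 250 bases before the start in the RefSeq promoter table, chr11:120824548-120824797, inside the span of the gene but free of exon bases, are shown because its libraries did not overlap in CPM, with matches to the NF-Y box (CCAAT on either strand) in capitals. The matches start 90, 62 and 59 bases before the start, and the last 2 overlap. For comparison, the Elovl5 window (chr9:77917115-77917363, plus strand) holds 1 E-box (CACGTG) that starts 161 bases upstream and NF-Y boxes at 71 and 17 bases, also in capitals.
Fasn: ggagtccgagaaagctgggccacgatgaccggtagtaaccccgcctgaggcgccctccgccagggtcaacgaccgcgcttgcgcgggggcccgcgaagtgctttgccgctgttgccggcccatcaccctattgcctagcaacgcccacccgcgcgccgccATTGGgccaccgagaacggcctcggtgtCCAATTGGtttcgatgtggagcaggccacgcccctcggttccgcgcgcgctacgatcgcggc
Elovl5: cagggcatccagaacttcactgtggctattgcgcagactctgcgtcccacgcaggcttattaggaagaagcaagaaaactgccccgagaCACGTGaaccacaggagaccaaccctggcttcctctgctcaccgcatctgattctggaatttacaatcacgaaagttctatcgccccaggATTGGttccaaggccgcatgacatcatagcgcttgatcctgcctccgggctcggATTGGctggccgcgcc

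RefSeq gave 37 promoters for 27 of the 34 genes; those of Dgat1, Dgat2, Fabp4, Fabp5, Fads1, Scd1 and Scd2 were not in the table used. In windows of 250 bases, searched on both strands, 48.6% of the 37 held an NF-Y box against 33.8% of 32851 mouse promoters, and 54.1% held an Sp1 box (GGGCGG) against 32.7%. The E-box was in 8.11% against 6.02%, and a sterol regulatory element written as TCACNCCAC was in 5.41%, those of Acsl1 and Mlxipl, against 1.05%. Among the 13 promoters found for 11 of the 12 genes that were lower in all αGlu libraries, 7 held an NF-Y box, 8 an Sp1 box, 1 an E-box and 0 the sterol regulatory element in these letters. Some windows hold exon bases, at 243 of the 250 for Fads2 and 121 to 159 for a window each of Agpat3, Gpam, Elovl6 and Hilpda. For starts of Fads3, Lpin2, Gpam, Pnpla3 and Srebf1, the bases that follow were not found in the transcripts searched. The motif matches are a description of the sequence, and binding of a factor was not measured.

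Of the 3 tested elongases, which add carbons to fatty acyl-CoA, Elovl1 and Elovl5 were below Ctr in every αGlu library, and Elovl6 overlapped Ctr. Elovl1, which elongates saturated and very long chains and was the most abundant elongase per length, stood at 158, 162 and 162 CPM for Ctr and at 139, 115 and 119 CPM for αGlu. The Ctr libraries lay close together, and every αGlu library was below them, αGlu 2 and 3 more so than αGlu 1. Its log2 fold change was −0.37 ± 0.10 (SE) with an edgeR adjusted p of 0.157, and without αGlu 1 it was −0.46 with an edgeR adjusted p of 0.00426, which is past the p threshold but not past the 2-fold limit.

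Elovl5, which elongates polyunsaturated chains, stood at 76.6, 66.3 and 75.0 CPM in Ctr and 63.4, 56.6 and 55.1 CPM for αGlu, which is a log2 fold change of −0.32 ± 0.09 (SE). The lowest Ctr and the highest αGlu library were near each other, and without αGlu 1 the log2 fold change was −0.38. Elovl7 had too few reads for the test with 6 libraries, at 17, 9 and 12 reads in Ctr and 4, 4 and 3 reads in αGlu, or 0.772, 0.376 and 0.557 against 0.229, 0.126 and 0.110 CPM. Its groups did not overlap, and without αGlu 1 it was tested and called, at a log2 fold change of −2.22. It then passed the read filter only through Ctr, the group where it was higher, so this call is no evidence of a difference. Elovl6, which extends palmitate to stearate, was low, at 13 to 50 reads, and its groups overlapped, at a log2 fold change of −0.42 ± 0.42 (SE). The elongases together came to 241 ± 6.80 TPM (SD, n = 3) in Ctr and 199 ± 14.3 TPM (SD, n = 3) in αGlu. Elovl1 shares 1.94% of its exon bases with Cdc20 on the other strand, a gene with 19 to 105 reads.

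The desaturases fell into 2 patterns. The front-end desaturase genes Fads1, Fads2 and Fads3, of which Fads1 and Fads2 make arachidonic acid and other highly unsaturated fatty acids, were lower in all αGlu libraries. The stearoyl-CoA desaturase genes Scd1 and Scd2, which make oleate and palmitoleate, differed in opposite directions in αGlu 2 and αGlu 3, and αGlu 1 did not follow them.

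Fads2 had the largest log2 fold change below 0 of the 31 genes. It stood at 9.90, 8.07 and 4.83 CPM in Ctr 1, 2 and 3 and at 1.20, 2.55 and 2.16 CPM in αGlu 1, 2 and 3. All αGlu libraries were below the lowest Ctr library, with αGlu 1 the lowest of all. The log2 fold change was −1.93 ± 0.38 (SE) with an edgeR adjusted p of 0.149, and −1.69 without αGlu 1 with an edgeR adjusted p of 0.00862. Without Ctr 1 it was also −1.69. Over the alternative fits the adjusted p of Fads2 lay between 0.000289 (DESeq2) and 0.427.

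Fads1, at 87.8, 78.4 and 74.4 CPM in Ctr and 62.8, 56.5 and 61.4 CPM for αGlu, was more abundant and less far apart, with a log2 fold change of −0.41 ± 0.09 (SE), and −0.45 without αGlu 1. Fads3, whose product acts on sphingoid bases, stood at 11.4, 7.02 and 7.80 CPM in Ctr and 5.74, 2.33 and 2.86 CPM for αGlu. Its log2 fold change was −1.28 ± 0.39 (SE), and without αGlu 1 it was −1.75 with an edgeR adjusted p of 0.0031. Without Ctr 1 it was −1.03. The 3 genes are neighbours on chromosome 19 in build GRCm38, with Fads3 at chr19:10040855-10060113, Fads2 at chr19:10062765-10101503 and Fads1 at chr19:10182877-10196874. Fads3 and Fads2 are 2651 bases apart, and Fads2 and Fads1 are 81.4 kb apart. The TPM of Fads1 divided by that of Fads2 was 6.07, 6.65 and 10.6 in Ctr and 35.7, 15.2 and 19.4 in αGlu, so the balance between the 2 genes lay toward Fads1 in all 3 αGlu libraries.

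Scd2, the more abundant stearoyl-CoA desaturase gene, stood at 298, 204 and 149 CPM in Ctr, at 99.4 CPM in αGlu 1 and at 492 and 438 CPM in αGlu 2 and 3. The αGlu libraries of Scd2 lay on both sides of Ctr. With all 6 libraries the log2 fold change was 0.66 ± 0.60 (SE), and without αGlu 1 it was 1.10 with an edgeR adjusted p of 0.0198. Scd1 stood at 62.1, 72.9 and 37.1 CPM in Ctr, at 41.2 CPM in αGlu 1, within the Ctr range, and at 9.16 and 4.73 CPM in αGlu 2 and 3. The log2 fold change of Scd1 was −1.66 ± 0.80 (SE), and without αGlu 1 it was −3.04 with an edgeR adjusted p of 0.00172. The TPM of Scd2 divided by that of Scd1 was 4.30, 2.51 and 3.60 in Ctr, 2.16 in αGlu 1 and 48.1 and 82.8 in αGlu 2 and 3. Thus αGlu 1 was below the Ctr range of this ratio and the other αGlu libraries were far above it. Scd2 (chr19:44293676-44306864) and Scd1 (chr19:44394450-44407709) are 87.6 kb apart in build GRCm38 and close in sequence. The sources used here do not give how reads with more than 1 match were counted, so the split of reads between them is uncertain. Values in each library for Scd1, Acsl4, Lpin1, Plin2, Hilpda and Fabp4 are given after their values were seen.

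**Figure D2:**
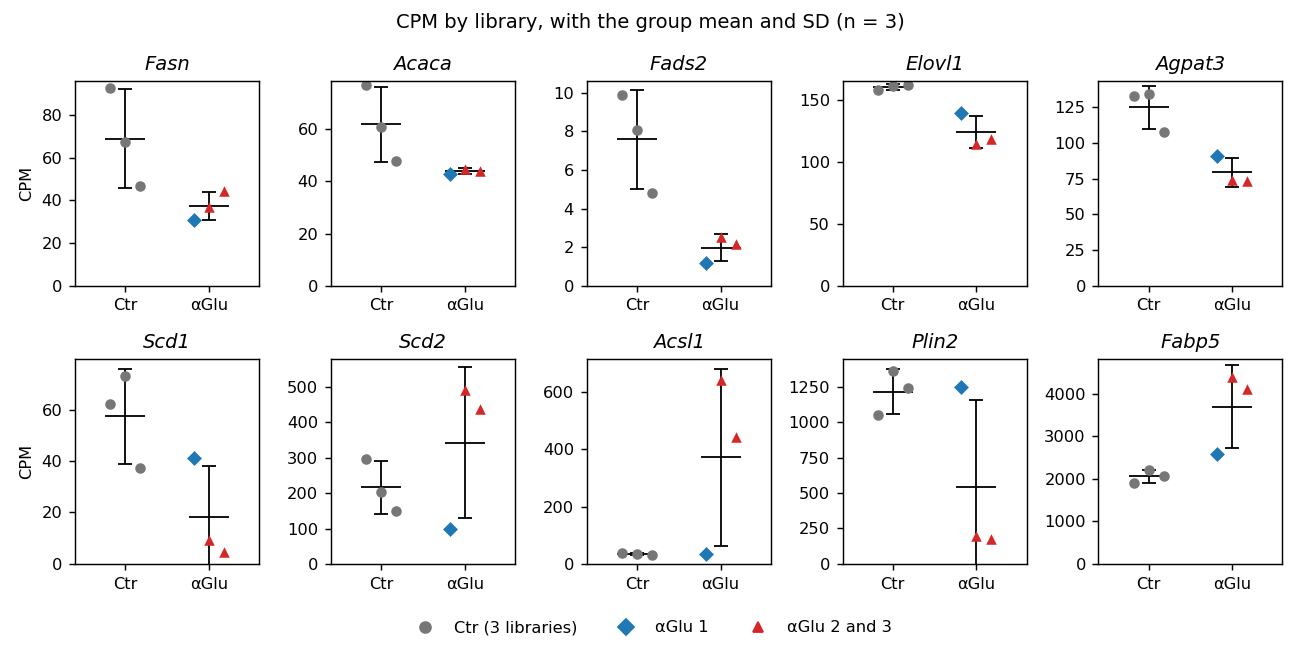
CPM (vertical, linear, from 0) of 10 genes in each Ctr library (grey circles), αGlu 1 (blue diamond) and αGlu 2 and 3 (red triangles), with the group mean (horizontal line) and SD (bars, n = 3, not drawn below 0). Fasn, Acaca, Fads2, Elovl1 and Agpat3 in the upper row have all αGlu points below all Ctr points (Fasn and Acaca not by library size alone), and in Scd1, Acsl1 and Plin2 of the lower row αGlu 1 sits with Ctr while αGlu 2 and 3 sit apart.

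Acyl-CoA synthetases, which activate free fatty acids for use, differed by member. Acsl1, a form prominent in fat, liver and heart, had the largest difference of all 31 genes. It stood at 36.6, 33.5 and 30.8 CPM in Ctr and 35.0 CPM in αGlu 1, but at 641 and 443 CPM in αGlu 2 and 3. αGlu 1 was inside the Ctr range and the other αGlu libraries were at 19.1 and 13.2 times the Ctr mean. The log2 fold change was 3.47 ± 0.97 (SE) with an edgeR adjusted p of 0.158, and 4.01 without αGlu 1 with an edgeR adjusted p of 3.5e-05.

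Acsl5, the most abundant of the 4 per length over all libraries, stood at 166, 194 and 197 CPM in Ctr, 161 CPM in αGlu 1 and 291 and 321 CPM in αGlu 2 and 3. Acsl4, which prefers arachidonic acid, stood at 78.0, 82.6 and 82.5 CPM in Ctr, 78.4 CPM in αGlu 1 and 146 and 166 CPM in αGlu 2 and 3. Acsl3, a synthetase of droplets and the endoplasmic reticulum, went the other way, at 23.3, 14.4 and 13.9 CPM in Ctr and 6.42, 11.02 and 12.1 CPM for αGlu. It was the only synthetase gene with all αGlu libraries below Ctr, with a log2 fold change of −0.80 ± 0.31 (SE), and −0.51 without Ctr 1. Without αGlu 1 the edgeR adjusted p was 0.000512 for Acsl4 and 0.00312 for Acsl5, both under the 2-fold limit, and 0.106 for Acsl3.

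Acsl1 made up 6.09%, 5.19% and 4.75% of the summed TPM of the 4 synthetase genes in Ctr, 6.38% in αGlu 1 and 40.7% and 29.8% in αGlu 2 and 3. The sum was 182 ± 4.47 TPM (SD, n = 3) in Ctr and 370 ± 180 TPM (SD, n = 3) in αGlu, of which αGlu 1 had 162 TPM. Acsl5 shares 8.31% of its exon bases with Zdhhc6 on the other strand, which had 760 to 2323 reads, and Acsl3 shares 5.6% with Utp14b on the same strand, which had 33 to 218 reads. Whether the counting used strand was not given, so a part of these reads may belong to the partner.

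Acsl1 (chr8:46471037-46536051) has a second RefSeq start, and the 250 bases before it (chr8:46490716-46490965, plus strand, GRCm38, inside the span of the gene and free of exon bases) are shown because this gene and Acsl3 differed in opposite directions. The window holds the sterol regulatory element on the minus strand, starting 76 bases upstream, and NF-Y boxes at 172 and 49 bases, all in capitals. Which start was used in these cells was not tested.
Acsl1: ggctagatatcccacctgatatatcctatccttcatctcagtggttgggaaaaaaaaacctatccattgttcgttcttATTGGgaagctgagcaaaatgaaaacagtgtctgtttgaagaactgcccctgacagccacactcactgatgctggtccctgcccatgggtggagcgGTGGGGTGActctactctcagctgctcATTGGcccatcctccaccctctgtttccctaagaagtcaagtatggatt

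Among the genes of glycerolipid assembly the groups lay close together, other than in Agpat3, Lpin1 and the scarce Dgat2. Agpat3, an acyltransferase that forms phosphatidic acid and other phospholipids, stood at 133, 134 and 107 CPM in Ctr and 90.9, 74.2 and 73.0 CPM for αGlu. All αGlu libraries were below all Ctr libraries. Its log2 fold change was −0.65 ± 0.14 (SE) with an edgeR adjusted p of 0.149, and −0.77 without αGlu 1 with an edgeR adjusted p of 0.00344, under the 2-fold limit. Lpin1, which makes diacylglycerol from phosphatidic acid, stood at 82.6, 60.4 and 62.6 CPM in Ctr, 62.0 CPM in αGlu 1 and 23.9 and 26.2 CPM in αGlu 2 and 3. αGlu 1 lay within the Ctr range, and without it the log2 fold change was −1.46 with an edgeR adjusted p of 0.000819.

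Lpin2, the related phosphatase, did not follow Lpin1 and stood between 92.1 and 115 CPM in all 6 libraries, with a log2 fold change of 0.12 ± 0.10 (SE). Agpat2, the most abundant assembly gene per length over all libraries, stood at 30.5, 33.6 and 33.1 CPM in Ctr and 27.8, 34.9 and 33.7 CPM for αGlu, which is a log2 fold change of −0.01 ± 0.11 (SE). Gpam, the mitochondrial acyltransferase that starts glycerolipid synthesis, and the acyltransferase gene Agpat4 had log2 fold changes of 0.03 and 0.04, below their SEs of 0.16 and 0.20. The sign of the 3 small differences of Agpat2, Agpat4 and Gpam changed when single libraries were left out. Of the 2 enzymes that complete triglycerides, Dgat1 stood between 11.04 and 17.6 CPM with overlapping groups. Dgat2 was scarce, at 0.545, 1.003 and 0.603 CPM in Ctr and 0.918, 1.70 and 1.39 CPM for αGlu, and αGlu 1 overlapped Ctr. The 8 genes summed to 180 ± 11.7 TPM (SD, n = 3) in Ctr and 162 ± 1.32 TPM (SD, n = 3) in αGlu.

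Droplet and fatty acid binding genes held most of the RNA of this pathway, and their make-up differed between the libraries. Fabp5, a fatty acid binding protein, was the most abundant gene at 1738 ± 96.2 TPM (SD, n = 3) in Ctr and 3327 ± 940 TPM (SD, n = 3) in αGlu. In CPM it stood at 1904, 2197 and 2071 in Ctr and at 2582, 4403 and 4106 in αGlu. It was the 1 gene with every αGlu library above every Ctr library, and αGlu 1 lay between Ctr and the other αGlu libraries. The log2 fold change was 0.85 ± 0.25 (SE) with an edgeR adjusted p of 0.160, and 1.04 without αGlu 1 with an edgeR adjusted p of 0.000679. Copies of Fabp5 elsewhere in the genome may share its reads.

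Plin2, the main perilipin of Mφ droplets, was the gene for which 1 library mattered most. It stood at 1048, 1358 and 1241 CPM in Ctr and 1249 CPM in αGlu 1, but at 196 and 178 CPM in αGlu 2 and 3. αGlu 1 was inside the Ctr range, and the other αGlu libraries were at 0.161 and 0.146 of the Ctr mean. With all 6 libraries the log2 fold change was −1.17 ± 0.79 (SE) with an edgeR adjusted p of 0.369, and without αGlu 1 it was −2.71 with an edgeR adjusted p of 6.6e-05. Plin3, a perilipin that moves between the cytosol and droplets, stood at 174, 194 and 169 CPM in Ctr and 157, 93.4 and 83.1 CPM for αGlu. All its αGlu libraries were below Ctr, though αGlu 1 only slightly, and its log2 fold change was −0.69 ± 0.25 (SE) with all libraries and −1.03 without αGlu 1, with an edgeR adjusted p of 0.000661.

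Hilpda, an inhibitor of the lipase ATGL that is induced by hypoxia and fatty acids, stood at 4.73, 5.099 and 5.15 CPM in Ctr, 3.38 CPM in αGlu 1 and 33.3 and 20.3 CPM in αGlu 2 and 3. It differed in opposite directions within αGlu, and without αGlu 1 its log2 fold change was 2.42 with an edgeR adjusted p of 0.000418. Fabp4, the neighbour of Fabp5 on chromosome 3 at a distance of 187.7 kb, stood at 362, 307 and 311 CPM in Ctr and 309, 237 and 216 CPM for αGlu. The TPM of Fabp5 divided by that of Fabp4 was 6.62, 9.02 and 8.38 in Ctr and 10.5, 23.4 and 23.95 in αGlu, above Ctr in all 3 libraries. Pnpla3, a lipase-like droplet protein of liver and fat, had 0 reads in every library, so that up to 0.168 CPM is possible in the shallowest of the 6. Of the summed TPM of the 34 genes, Fabp5 made up 40.3%, 42.0% and 42.7% in Ctr and 49.7%, 67.9% and 68.1% in αGlu, and Plin2 made up 22.5%, 26.4% and 26.01% in Ctr, 24.4% in αGlu 1 and 3.07% and 2.99% in αGlu 2 and 3.

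**Figure D3:**
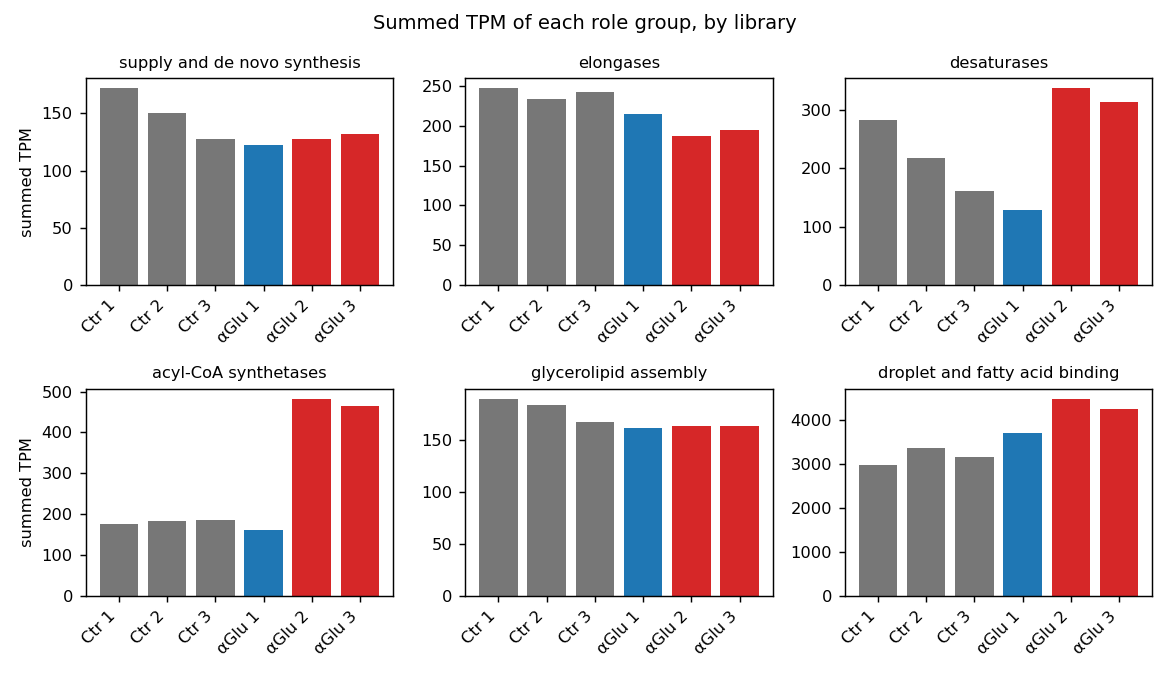
Summed deposited TPM (vertical, from 0, each panel with its own scale) of 6 role groups in each of the 6 libraries (horizontal; grey for Ctr, blue for αGlu 1, red for αGlu 2 and 3). The elongases are lower in all αGlu libraries, the acyl-CoA synthetases reach 482 and 466 TPM in αGlu 2 and 3 against 162 TPM in αGlu 1, and the desaturases of αGlu 1 lie below Ctr while those of αGlu 2 and 3 lie above it.

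Of the transcription factors, only Srebf1 was measurable. Srebf1, which encodes SREBP-1, stood at 80.9, 80.2 and 59.9 CPM in Ctr and 57.2, 89.3 and 85.02 CPM for αGlu, with αGlu 1 below Ctr and αGlu 2 and 3 above. Its log2 fold change was 0.07 ± 0.21 (SE), and its sign changed when Ctr 3, αGlu 2 or αGlu 3 was left out. Mlxipl, which encodes ChREBP, had 5 reads in all libraries together and was not tested.

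With any single library other than αGlu 1 left out, 0 genes were called. Leaving out αGlu 1, picked because it stood nearer to Ctr in these same data, changed the result of the test for many genes of the pathway. Without it edgeR's quasi-likelihood test called 7 of 32 genes lower (Scd1, Elovl7, Fads2, Fads3, Lpin1, Plin2 and Plin3), where 10.5% of all genes were called lower, and 5 higher (Scd2, Acsl1, Dgat2, Fabp5 and Hilpda), where 8.05% were called higher. Of these, Elovl7 entered the test only through its Ctr reads. With 2 αGlu libraries in place of 3, non-overlap is easier to reach. The genes of the pathway without overlap then numbered 17 in place of 12 on the lower side, where 32.2% of all genes lay, and 10 in place of 1 on the higher side, where 33.6% of all genes lay. In 8 of the 31 genes αGlu 2 and 3 lay on 1 side of Ctr with αGlu 1 inside the Ctr range, which is 25.8% against 24.7% of all genes, so this split was about as common here as elsewhere. In 6 genes (Scd2, Srebf1, Acsl5, Agpat2, Agpat4 and Hilpda) αGlu 2 and 3 lay above Ctr and αGlu 1 below it. A split with αGlu 1 on the opposite side of Ctr, in either direction, was thus found in 19.4% of the 31 genes and in 10.9% of all genes. Of the 12 genes with all αGlu libraries below Ctr, Ctr 1 was the highest Ctr library for Fasn, Me1, Acaca, Acly, Elovl5, Fads1, Fads2, Fads3 and Acsl3. Among the other tested genes it was the highest for Elovl6, Scd2, Acsl1, Lpin1, Dgat1, Gpam, Fabp4 and Srebf1. This spread within Ctr enters each of their SEs.

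**Figure D4:**
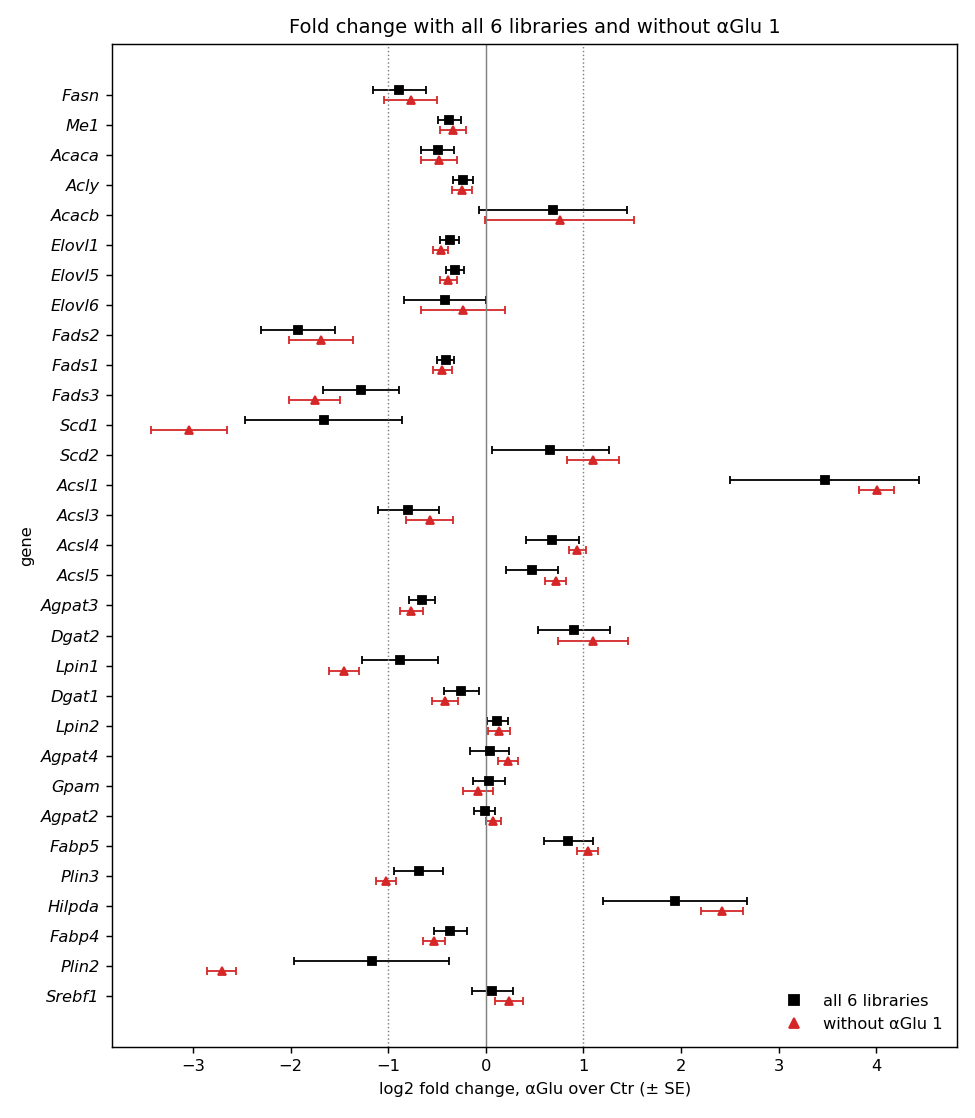
Log2 fold change, αGlu over Ctr, with its SE (horizontal) for the 31 tested genes (vertical), from all 6 libraries (black squares) and without αGlu 1 (red triangles); dotted lines mark the 2-fold limit. The bars of Plin2 and Scd1 narrow and their values move from −1.17 to −2.71 and from −1.66 to −3.04 without αGlu 1, while those of Fasn, Acaca, Fads1 and Elovl1 move little.

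Other genes of the pathway, from lists written by role, were read in the same fit, in which 0 were called. The counts of these lists stand beside those of all genes tested, of which 48% were lower in αGlu. At an unadjusted edgeR p under 0.05, 11.9% of all genes were lower and 12.7% higher. Among 20 genes of SREBP processing and lipogenic regulation, 19 were tested, 14 were lower and 5 higher in αGlu, and at an unadjusted edgeR p under 0.05 there were 4 lower and 1 higher. Insig1, which retains SREBP in the endoplasmic reticulum and is itself an SREBP target, stood at 73.8, 40.4 and 41.1 CPM in Ctr and 19.7, 15.4 and 18.96 CPM for αGlu, which is a log2 fold change of −1.53 ± 0.27 (SE). Srebf2, which encodes SREBP-2, stood at 164, 115 and 100 CPM in Ctr and 64.5, 61.1 and 63.7 CPM for αGlu, which is a log2 fold change of −1.002 ± 0.19 (SE). In both genes all 3 αGlu libraries, αGlu 1 included, were below Ctr, as for the 12 genes above. Ctr 1 was the highest Ctr library in both. Without αGlu 1 their log2 fold changes were −1.60 and −1.02. Mid1ip1, an activator of acetyl-CoA carboxylase, had a log2 fold change of −0.40 ± 0.12 (SE). Pparg, a nuclear receptor that controls genes of droplets and fatty acid binding, was chosen after its values were seen, and stood at 201, 217 and 201 CPM for Ctr, 183 CPM in αGlu 1 and 13.0 and 12.4 CPM in αGlu 2 and 3. αGlu 1 lay just below the lowest Ctr library, and αGlu 2 and 3 lay far below it.

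Of 19 other enzymes of synthesis and elongation, 14 were tested, 11 were lower and 3 higher, with 3 lower and 1 higher at an unadjusted edgeR p under 0.05. Degs1, the dihydroceramide desaturase, stood at 295, 294 and 304 CPM in Ctr and 224, 145 and 142 CPM for αGlu, which is a log2 fold change of −0.80 ± 0.20 (SE). Tecr, which completes each elongation cycle, had a log2 fold change of −0.30 ± 0.08 (SE). Mcat, a malonyl transferase of mitochondrial fatty acid synthesis, was higher, with every αGlu library above Ctr and a log2 fold change of 0.40 ± 0.14 (SE). Among 20 other acyltransferases and phospholipid enzymes, 15 were tested, 6 were lower and 9 higher. At an unadjusted edgeR p under 0.05 there were 2 in each direction, where 11.9% of all genes were lower and 12.7% higher. Pcyt2, the rate-setting enzyme of phosphatidylethanolamine synthesis, had the smallest unadjusted p of these lists and stood at 34.5, 33.0 and 29.7 CPM in Ctr and 20.6, 18.98 and 21.9 CPM for αGlu, which is a log2 fold change of −0.66 ± 0.10 (SE). Lclat1, an acyltransferase of lysocardiolipin, had a log2 fold change of −0.76 ± 0.21 (SE). On the higher side were Agpat5, at 0.44 ± 0.17 (SE), and Lpcat2, an enzyme that reacylates lysophosphatidylcholine, at 1.501 ± 0.60 (SE), with αGlu 1 inside the Ctr range for Agpat5 and below it for Lpcat2. Among 16 other droplet proteins, 9 were tested, 5 were lower and 4 higher, with 2 lower and 1 higher at an unadjusted edgeR p under 0.05. Cideb, a droplet protein of the CIDE family, was scarce at 0.363, 0.752 and 0.557 CPM across Ctr and 1.03, 1.42 and 1.25 CPM across αGlu. Every αGlu library of Cideb was above Ctr, at a log2 fold change of 1.14 ± 0.34 (SE). This rests on 8, 18 and 12 reads in Ctr and 18, 45 and 34 reads in αGlu. By its Ctr reads alone Cideb would not have passed the read filter, so its entry to the test leaned on the higher group. Pnpla2, which encodes the lipase ATGL, had a log2 fold change of −0.71 ± 0.27 (SE), and its activator Abhd5 one of −0.54 ± 0.21 (SE).

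Fat cells share several of these genes, so their markers were read as well. Of 8 adipocyte markers, Lep, Cidec and Pck1 had 0 reads in all libraries, and Cfd, Plin1 and Retn had at most 0.227 CPM. Adipoq stood at 1.36, 1.38 and 1.11 CPM in Ctr and 0.574, 0.0315 and 0.147 CPM for αGlu, on 1 to 33 reads per library. The summed adipocyte list lay between 29.0 and 35.0 CPM in Ctr and between 39.4 and 41.5 CPM for αGlu, nearly all of it Lipe, which Mφs also express. Marker lists of neutrophils, fibroblasts, dendritic cells, lymphocytes and mast cells each summed to at most 7.18 CPM in any library, and the mast cell list stood between 3.06 and 4.93 CPM in Ctr and αGlu 1 and at 1.48 and 1.03 CPM in αGlu 2 and 3. Their part in the results was not tested.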

How the data were processed

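Stranded mRNA libraries were made from total RNA per the labels. The authors used the RNA-seq Analysis Portal 5.1 of QIAGEN, and the submitters' processing notes name build GRCm38. The aligner, the annotation and the rule for reads with more than 1 match are not given in the sources used here. The deposited counts are whole exon reads per gene without normalization, and the deposited TPM values were scaled by the authors for exon length and depth. The counts were tested in R 4.3.3 with edgeR 4.0.16 (filterByExpr, minimum count 10 and minimum total 15, TMM factors, quasi-likelihood test with the group as its only term, two-sided, Benjamini-Hochberg over all 11933 genes). Calls required an adjusted p below 0.1 and a log2 fold change beyond 1 in either direction. The SE is the fold change divided by the root of its F statistic. CPM values are scaled to TMM-adjusted library sizes, and TPM served for levels compared or summed between genes. With 3 libraries per group, an exact permutation test cannot go below 0.1 and was not used. Alternatives were DESeq2 1.42.0, limma-voom (limma 3.58.1), other factors, filters and thresholds, the replicate number as a block and each library left out. Counting the non-overlapping genes without αGlu 1 and in TPM was added after the data had been seen. All pairs of libraries differed beyond sampling noise, with a chi-square per gene of at least 19.8. The fits were tested on simulated data. Positions, gene neighbours and promoters are RefSeq's on GRCm38.p6, and exon overlaps are from GENCODE on the same build. The genes and lists were chosen with earlier results of these data known. By the rule for naming genes, values in each library are given for the most abundant gene of a role group per length, the 2 with the smallest p and any without overlap, and for the 3 of smallest p, at most, in each other list.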

Additional observations from a re-analysis of the deposited data

How the results depend on the processing

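With all 6 libraries and edgeR, 0 genes in all and 0 of the pathway were called. DESeq2 called 1117 and 5, respectively. Leaving out 1 library at a time gave 0 to 2290 genes in all and 0 to 12 of the pathway, the higher values being those without αGlu 1, which also moved the pathway genes without overlap from 1 to 10 on the higher side (33.6% of all genes) and from 12 to 17 on the lower side (32.2%). By library size alone or in TPM, 9 were lower without overlap, not Fasn, Acaca and Acly. The median log2 fold change of the pathway ran from −0.37 to −0.17 over the fits that leave out 1 library, the latter without Ctr 1. The replicate number as a block gave 17 genes in all and 0 of the pathway. Same-numbered libraries deviated together at r of 0.0618, 0.0674 and 0.161, against −0.148 to 0.0598 for other pairs. Each same-numbered pair was thus above every other pair, by little for numbers 1 and 2. These r are small, and whether the numbers pair the libraries is not settled. The log2 ratio of summed levels of the glycerolipid genes was −0.15 in TPM and −0.30 in CPM. In the single genes, 405 values kept their direction and side of the threshold, 15 in 11 genes passed it and 12 in 5 genes changed sign. Over the fits that leave out 1 library, the log2 fold change of Elovl6 ran from −0.64 to 0.050 (above 0 without Ctr 1), that of Srebf1 from −0.065 to 0.24 (below 0 without Ctr 3, αGlu 2 or αGlu 3), that of Gpam from −0.080 to 0.14 (below 0 without Ctr 3 or αGlu 1), that of Agpat4 from −0.13 to 0.22 (below 0 without αGlu 2) and that of Agpat2 from −0.071 to 0.076 (above 0 without Ctr 2, Ctr 3 or αGlu 1). Agpat2 was at 0.0077 with upper-quartile factors and at 0.079 by library size alone. The cause of these changes was not tested. Genes under about 1 CPM, such as Elovl7, Acacb and Dgat2, rest on few reads.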
